A study of Drosophila melanogaster with 8 samples.

Results

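Bomanin and Turandot genes encode small secreted peptides of the fly, and 10 of them could be followed here animal by animal. They were chosen by name from the array's annotation: every gene whose symbol starts with BomS, BomT or BomBc, or equals TotA, TotB, TotC, TotM or TotX, with a probe set annotated to that gene alone. These were 8 Bomanin and 2 Turandot genes of 11982 genes measured. A probe set is the group of short array probes that together measure 1 transcript. Where a gene has several, the rule takes the one with the highest mean log2 intensity, but each of these genes had 1, so that choice altered nothing. The genes were put forward because single animals were seen to differ in them. Their spread between animals is therefore described below and not tested.

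The 8 arrays each held the RNA of 1 whole white prepupa of Drosophila melanogaster at puparium formation (0 hours). Wild type was the strain w1118, with 2 females and 2 males, and the double mutants (bap170;bap180) were also 2 females and 2 males. Bap170 and polybromo (formerly bap180) are subunits of PBAP, a chromatin remodelling complex, and the study compares animals with and without both. The labels name no alleles and do not say whether the mutants share the wild type's genetic background. Arrays are called below by genotype, sex and replicate number, as in mutant female 2.

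Bomanins are named for their structure: the short ones (BomS) consist of little more than the Bomanin motif, the tailed ones (BomT) carry an extension after it, and the bicipital ones (BomBc) have a pair of motifs joined by a linker. In adult flies they are induced through the Toll pathway, mostly in the fat body, and are needed for defence against fungi and some bacteria. Turandots are secreted peptides that appear in the hemolymph after infection, heat and other stress. Their induction in adults involves the JAK/STAT pathway, MAP kinase signalling and the Imd factor Relish. In the RefSeq gene order BomS4, BomBc2, BomS2, BomT2, BomS5 and BomS6 lie in 1 run of Bomanin genes on a single chromosome arm, interrupted among these 6 only by BomS3. BomT3 and BomBc3 neighbour each other on another arm, which also carries TotC next to TotB. No sequence is shown.

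BomS2, a short Bomanin, measured 3.42 and 3.33 (log2 intensity) in wild type females, 3.38 and 3.18 in wild type males, 3.78 and 11.58 in mutant females 1 and 2, and 9.61 and 3.39 in mutant males 1 and 2. Mutant female 2 and mutant male 1 thus stood far above all other animals, and the next highest array was 5.83 below the lower of the pair. On the wild type arrays BomS2 ranked between the 0.0 and 1.2 percentile of all probe sets, at the bottom of the measured range, where differences can be compressed. BomT2, a tailed Bomanin, had the same shape, with 3.69 and 3.69 in wild type females, 3.58 and 3.56 in wild type males, 4.33 and 11.53 in mutant females, and 10.26 and 3.78 in mutant males. The root mean square difference between its profile and that of BomS2, each centred on its own mean over the 8 arrays, was 0.20 (log2), while each differed from a flat profile by 3.15 (BomS2) and 3.11 (BomT2).

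BomS6 and BomS5, the short Bomanins at the end of the run, were high in the same 2 animals at lower values. BomS6 measured 3.43 and 3.37 in wild type females, 3.50 and 3.38 in wild type males, 3.95 and 9.32 in mutant females, and 7.95 and 3.83 in mutant males. BomS5 measured 3.82 and 3.76, 3.72 and 3.60, 3.91 and 8.38, and 7.12 and 3.72 in the same order. For BomS2, BomT2, BomS5 and BomS6 alike, mutant female 2 was the highest array, ahead of mutant male 1 by 1.26 (BomS5) to 1.97 (BomS2).

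The bicipital gene BomBc2 departed from its neighbours. Its values were 4.44 and 4.40 in wild type females, 4.04 and 3.85 in wild type males, 4.51 and 8.93 in mutant females, and 4.22 and 4.16 in mutant males. Only mutant female 2 was high, and mutant male 1, in which BomS2 next to it stood at the 91.3 percentile of the array, lay within the range of the other animals. BomS4, a short Bomanin whose annotated span overlaps that of BomBc2, ranged from 3.71 to 4.96, with its highest value also in mutant female 2 and the next, 4.27, in mutant female 1. Of the 6 genes of the run, the pair at its BomS4 end therefore showed no elevation in mutant male 1.

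BomT3 and BomBc3, a tailed and a bicipital Bomanin outside that run, were low on every array. BomT3 lay between 3.52 (mutant male 1) and 3.90 (wild type female 1), and BomBc3 between 4.01 (wild type male 2) and 4.50 (mutant female 1). Neither mutant female 2 nor mutant male 1 was the highest array for either gene. Values this low cannot show small differences.

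TotB, a Turandot, measured 5.35 and 4.68 in wild type females, 4.23 and 4.75 in wild type males, 4.14 and 8.0 in mutant females, and 13.54 and 3.79 in mutant males. In mutant male 1 it stood at the 99.7 percentile of all probe sets, and mutant female 2 was next, 5.55 lower. TotC measured 3.63 and 3.97, 3.77 and 3.88, 3.64 and 4.45, and 12.16 and 3.58 in the same order, with mutant male 1 alone far above the rest. The order of these 2 animals was thus opposite in the gene families: the 4 Bomanins named above were highest in mutant female 2, and both Turandots were highest in mutant male 1. In RNA of whole animals, more cells of a type and more RNA per cell cannot be told apart.

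**Figure D1:**
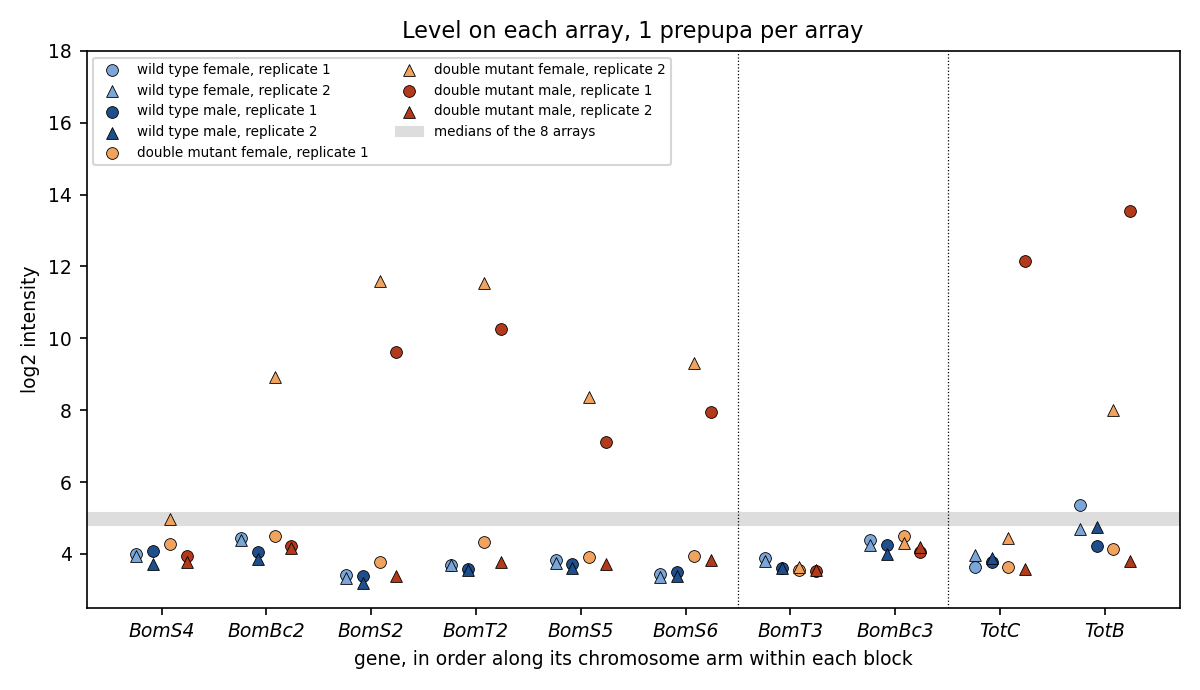
Log2 intensity of the 10 genes on each of the 8 arrays, 1 prepupa per array, with colour for the group, shape for the replicate number, a grey band over the array medians, and dotted lines between the Bomanin run, the other Bomanins and the Turandots. Mutant female 2 and mutant male 1 stand above the band in BomS2, BomT2, BomS5, BomS6 and TotB, while BomT3 and BomBc3 lie below it in every animal.

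The distance between the 2 animals of a group shows the same contrast between genotypes. In wild type pairs the 10 genes differed by 0.00 to 0.66 (log2), with TotB in females the farthest apart, but they were dim there, where differences can be compressed. Mutant females differed by 7.80 for BomS2, 7.20 for BomT2, 5.37 for BomS6, 4.47 for BomS5, 4.42 for BomBc2 and 3.86 for TotB. Mutant males differed by 9.76 for TotB, 8.57 for TotC, 6.48 for BomT2, 6.22 for BomS2, 4.12 for BomS6 and 3.41 for BomS5. BomBc2 (0.06) and BomS4 (0.17) hardly differed between the mutant males, and BomT3 and BomBc3 differed by at most 0.20 in either mutant pair. Each group held 1 pair, so these distances show 4 pairs and no estimate of how often such animals occur.

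**Figure D2:**
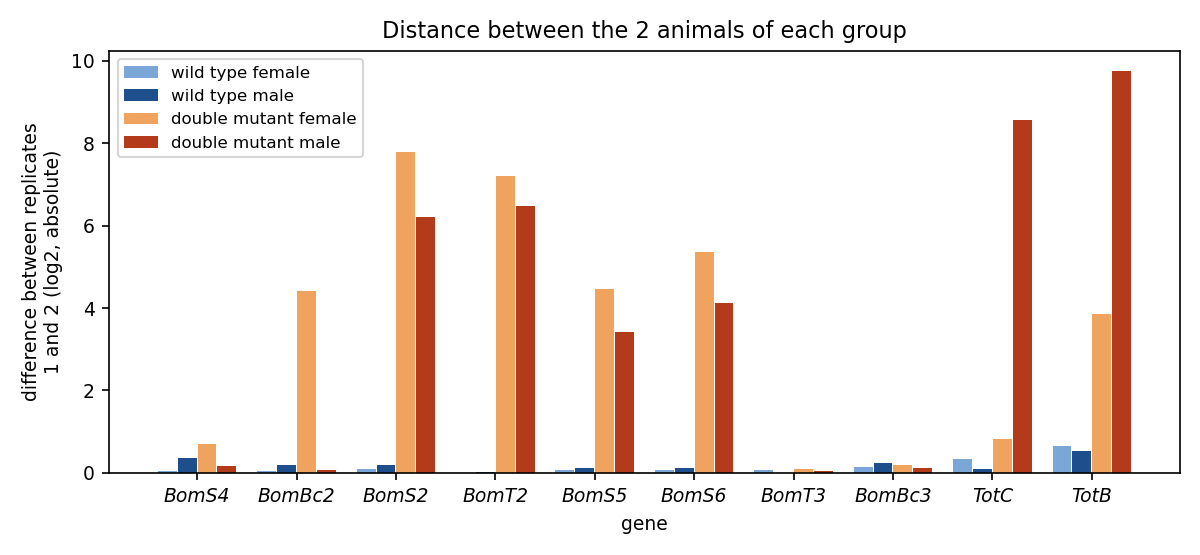
Absolute log2 difference between replicates 1 and 2 of each group, for each gene, with bars from 0. Wild type pairs stay at or below 0.66, and mutant pairs reach 7.80 in females (BomS2) and 9.76 in males (TotB).

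Over the 4 groups, the residual SD (the spread of single animals around their group means) of TotB was 3.72 (log2), the highest of all 18769 probe sets tested. BomS2 (3.53) ranked 3, BomT2 (3.43) ranked 6, TotC (3.05) ranked 9, BomS6 (2.39) ranked 19, BomS5 (1.99) ranked 30 and BomBc2 (1.56) ranked 46. BomS4 (0.28), BomBc3 (0.13) and BomT3 (0.05) lay much lower, the last at the 2.0 percentile. The median was 2.19 over the 10 genes and 0.18 over all probe sets. In the 4 wild type animals the median range of the 10 genes was 0.32, against 0.49 over all probe sets. A range over 4 animals is a different measure from the residual SD. The 10 genes were also dim in wild type, with means from 3.33 (BomS2) to 4.75 (TotB), where differences can be compressed. The small range therefore does not show that wild type animals are alike in these genes.

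**Figure D3:**
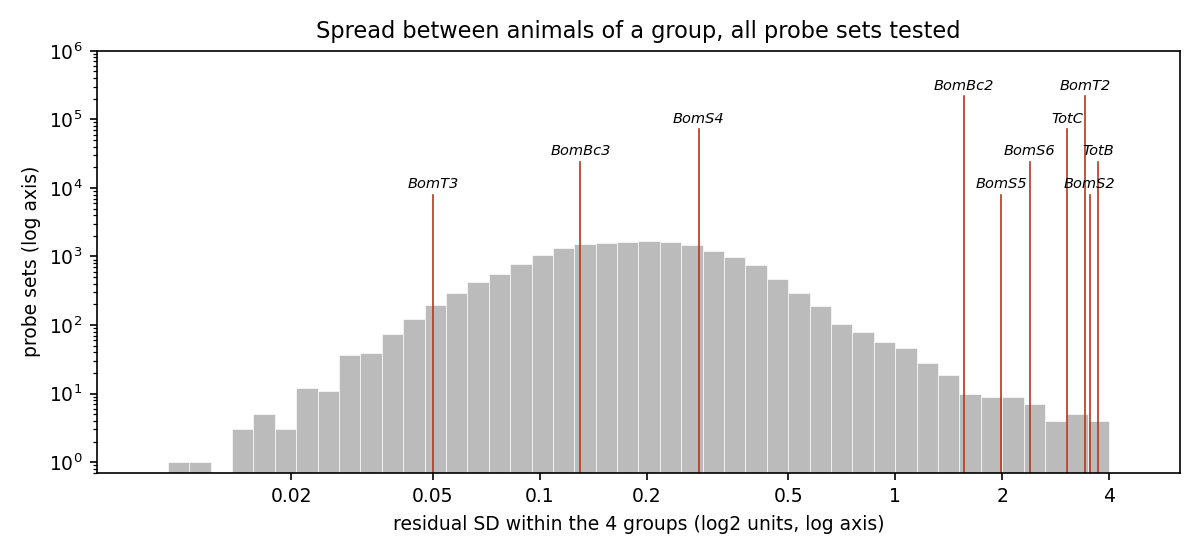
Distribution of the residual SD within the 4 groups over all probe sets tested (both axes on log scales), with lines at the 10 genes, whose heights only separate the names. TotB has the highest value at 3.72, and BomT3, at 0.05, lies near the lower end.

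The 2 animals were also the array pair that most often stood apart over all genes. In 42 probe sets (0.224% of those tested) they were the 2 highest arrays and at least 2-fold (1 on the log2 scale) above the other 6, the highest count among the 28 pairs of arrays. The next pair, wild type female 1 with mutant male 2, had 20. Of the 10 genes, 5 had this shape (BomS2, BomT2, BomS5, BomS6 and TotB). Mutant female 2 alone was at least 2-fold above every other array in 26 probe sets, of which 5 were Bomanins (BomBc2, BomS2, BomS5, BomS6 and BomT2). Mutant male 1 alone was so in 84, TotB and TotC included, and the other arrays in 2 to 22 probe sets with 0 of these genes.

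The comparison of genotypes asks whether the 4 mutants differ from the 4 wild type animals, as the mean of the differences in females and in males. None of the 10 genes passed the test (limma, p adjusted over all probe sets, threshold 0.05), while 2.79% of all probe sets were called. At an unadjusted limma p under 0.05 there were also none of the 10, against 2495 of all 18769 probe sets. The mean difference, mutant minus wild type, was 3.84 ± 1.83 (log2, SE, n = 4 per genotype) for BomT2 (limma adjusted p = 0.456) and 3.76 ± 1.88 for BomS2 (adjusted p = 0.486). BomS6 differed by 2.84 ± 1.28, with the lowest adjusted p of the 10 (limma, 0.421). TotB differed by 2.61 ± 1.99 and TotC by 2.14 ± 1.63 (limma adjusted p = 0.735 for both). For BomT2, BomS2 and BomS6 each mutant pair held 1 high and 1 low animal. Across the 10 genes 9 differences lay above 0, with a median of 2.10, against a median of -0.01 over all probe sets, of which 46.3% lay above 0. BomBc3, at 0.03 ± 0.11, is 1 of the 9. The genes were put forward because single animals were seen to differ, and several share the same high animals. This contrast with all probe sets is therefore a description.

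Without mutant female 2 and mutant male 1 (a fit chosen after seeing the data), the differences shrank to 0.26 ± 0.14 (log2, SE) for BomS2, 0.42 ± 0.13 for BomT2, 0.47 ± 0.13 for BomS6 and 0.09 ± 0.13 for BomS5. TotB became -0.79 ± 0.25 and TotC -0.20 ± 0.16, so both changed sign. The animals left out were those highest in these genes, so smaller differences follow from leaving them out. With 1 animal left in each mutant group, no call is drawn from this fit. The next values are again from all 8 arrays. Animals of the genotypes did not overlap at all in 2 of the 10 genes, against 6.34% of all probe sets. These were BomS6, where the lowest mutant (3.83) stood above the highest wild type animal (3.50), and BomT2, where the values were 3.78 and 3.69. In both, the low mutants exceeded wild type by a small margin: against the wild type mean of their sex, BomS6 stood 0.54 higher in mutant female 1 and 0.39 in mutant male 2, and BomT2 0.64 and 0.21. Wild type values lay near the floor of the arrays, at the 0.7 to 3.3 percentile for BomS6 and 5.8 to 9.0 for BomT2. The genes were put forward because single animals were seen to differ, so the share of all probe sets is no test of them.

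The differences also depended on single animals. Without mutant male 2 the difference was 5.05 for TotB and 4.29 for TotC, and without mutant female 1 it was 2.38 for BomBc2. In those fits the high animal is alone in its group and is assumed to vary like the other groups. No call is drawn from them. Without mutant male 1 the difference of TotB was 0.17 and that of TotC 0.00, and without mutant female 2 that of BomBc2 was 0.17. With 1 array left out, the difference ran from 1.81 to 5.71 for BomS2, from 2.04 to 5.64 for BomT2, from 1.50 to 4.18 for BomS6 and from 0.94 to 3.18 for BomS5. In all 4 the lowest value came without mutant female 2 and the highest without mutant female 1. Without mutant male 1 they were 2.21, 2.22, 1.81 and 1.21 in the same order.

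**Figure D4:**
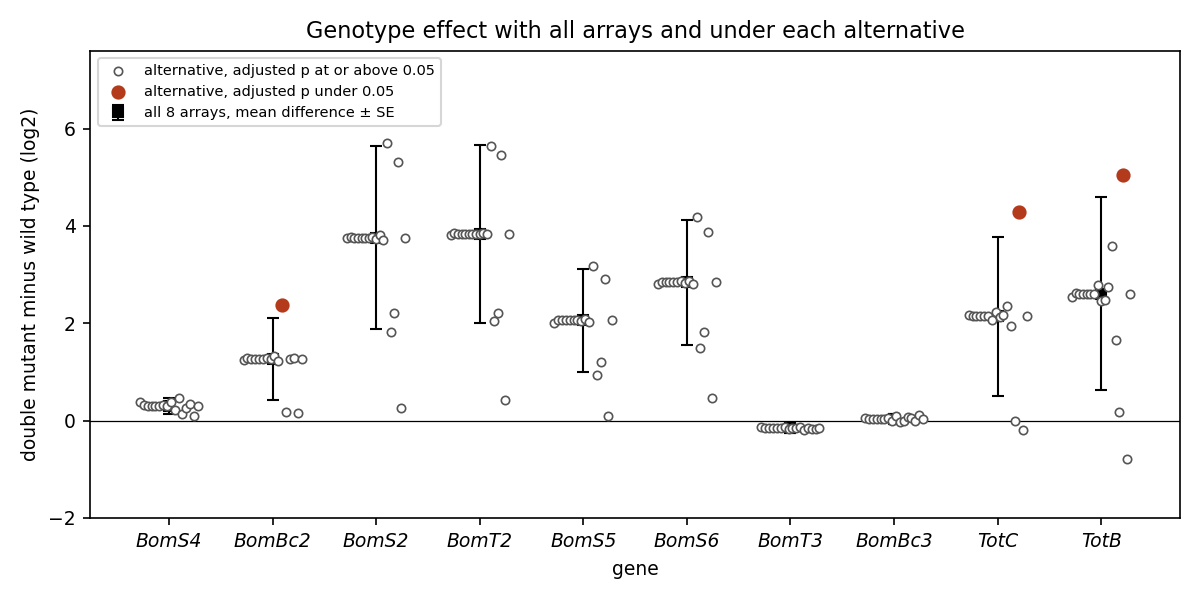
Mutant minus wild type difference (log2) of each gene with all 8 arrays (square, bars of 1 SE) and under each alternative fit (circles). Filled circles mark the 3 fits with limma adjusted p under 0.05, each with 1 low mutant left out.

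Within each sex, with 2 animals per group, none of the 10 genes passed either. In females 0.943% of probe sets were called, and the differences of the 10 genes ran from -0.27 (BomT3) to 4.30 (BomS2), with limma adjusted p = 0.465 to 0.994. In males 1.05% were called, and the differences ran from -0.06 (BomT3) to 4.17 (TotB), with limma adjusted p = 0.538 to 0.981. At an unadjusted limma p under 0.05 lay 1 of the 10 genes and 1678 probe sets in females, and 0 and 2467 in males. The interaction, the male difference minus the female difference, was 3.80 ± 3.26 (log2, SE) for TotC, 3.12 ± 3.97 for TotB and -2.05 ± 1.68 for BomBc2. It was called for 0% of probe sets and for none of the 10 genes (lowest limma adjusted p = 0.766), with 1184 probe sets but none of the 10 genes at an unadjusted p under 0.05. The opposite order of the families in the sexes thus rests on 1 female and 1 male.

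Between males and females none of the 10 genes passed, while 10.1% of probe sets were called. At an unadjusted limma p under 0.05 lay 1 of the 10 genes and 4608 probe sets. Differences, male minus female, ran from -1.50 ± 0.84 (log2, SE, n = 4 per sex) for BomBc2 to 1.92 ± 1.63 for TotC, and the lowest limma adjusted p was 0.193 (BomS4). Centring each array on its median moved the median difference of all probe sets from -0.13 to -0.40, and then the dim genes BomBc3 (-0.49), BomS4 (-0.68) and BomT3 (-0.42) passed as lower in males. In that fit 12522 of 18769 probe sets were called, 11078 of them lower in males. These 3 calls are therefore not read as a trait of the genes.

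Of 3 Turandot genes outside the name rule, 2 had the shape of those in it. TotZ, the neighbour of TotB, measured 3.65 and 3.63 in wild type females, 3.68 and 3.49 in wild type males, 3.82 and 3.74 in mutant females, and 10.94 and 3.61 in mutant males, the shape of TotC. TotF, on another arm, measured 4.22 and 6.85 in mutant females and 11.23 and 3.92 in mutant males, against 3.99 to 4.23 in wild type, the shape of TotB. TotE, its neighbour, stayed between 3.85 and 4.50. None of the 3 passed for genotype (limma adjusted p = 0.602 for TotF, the lowest).

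By root mean square difference of centred profiles over the 8 arrays, apart from the 10 genes described, the 5 nearest to BomS2 and to BomT2 were the same: CG6788, CG43085, CG1208, CG30026 and atilla, at 0.63 (CG6788 to BomT2) to 1.41 (atilla to BomS2). CG6788, the nearest, measured 4.20 to 4.96 on 6 arrays, 11.13 in mutant female 2 and 12.05 in mutant male 1. The gene atilla, known as a marker of lamellocytes, the blood cells that encapsulate parasites, measured 8.94 and 10.37 in those 2 animals and 4.54 to 5.85 in the others. TotC lay at 1.01 from TotB, and outside the 10 genes the 5 nearest to TotB were CG33462 (0.73), TotF (0.76), lectin-24A (1.10), CG43085 (1.14) and CG30026 (1.20). The lectin gene lectin-24A was high in mutant male 1 alone, at 12.76 against 3.59 to 4.10 elsewhere. These genes were ranked on their likeness in the same 8 animals, so the likeness is a description.

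**Figure D5:**
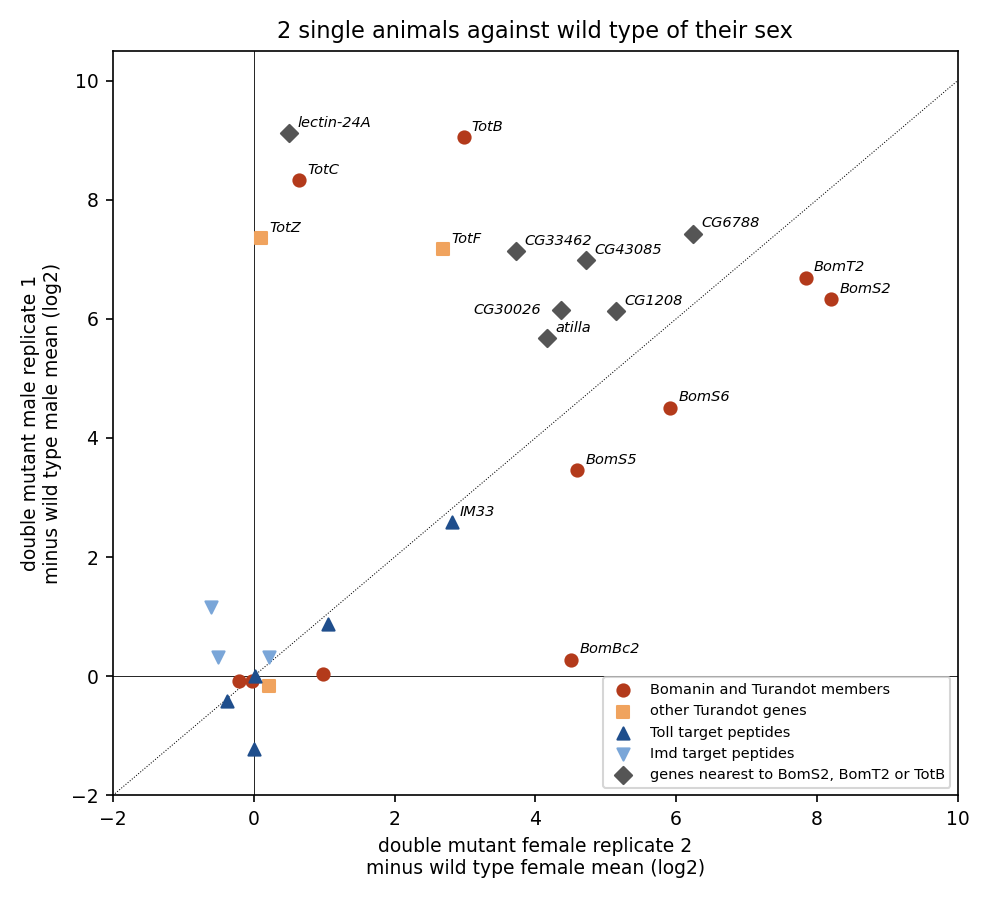
Log2 difference of mutant female 2 from the wild type female mean (horizontal axis) and of mutant male 1 from the wild type male mean (vertical axis), 1 point per gene, with equal differences on the dotted line. Bomanins of the run lie below the line, Turandots other than TotE lie above it, and IM33 is the only Toll or Imd target peptide with a difference above 2 in these animals.

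Other peptides that the Toll pathway induces in adults were also measured. Of 13 such genes on the list 5 were measured, and 0 were called for genotype, with a median of -0.06. IM33 had the shape of the Bomanins, with 11.43 in mutant female 2 and 10.25 in mutant male 1 against 7.22 to 9.31 in the others (1.76 ± 0.55, limma adjusted p = 0.197). The antifungal gene Drs measured 13.73 and 13.48 in those animals and 12.39 to 13.03 in the others, close to the brightest probe sets of these arrays (14.31 and 14.34), where differences can be compressed. Mtk, another antimicrobial peptide gene, was lowest in mutant male 1 (7.22, against 8.08 to 9.38), and Def (3.92 to 5.23) and BaraB (3.53 to 4.15) were dim throughout. Of 11 Imd target peptides 3 were measured and 0 called: DptB ranged from 4.33 to 4.88, AttD from 4.40 to 6.01 and CecB from 4.83 to 6.47. The highest animal was mutant female 2 for DptB, and neither mutant female 2 nor mutant male 1 for AttD and CecB.

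Upstream genes were measured on the same arrays, and their counts of calls stand beside the 2.79% of all probe sets called for genotype. Of 17 Toll pathway components 13 were measured, and GNBP3, a sensor of fungal glucans, rose in mutants by 0.90 ± 0.16 (log2, SE, limma adjusted p = 0.0336), with no other gene called and a list median of 0.18. SPE, the protease that activates the Toll ligand, was chosen after its values were seen: it measured 7.50 in mutant female 2 and 6.95 in mutant male 1, against 4.15 to 6.03 in the others (limma adjusted p = 0.730). The receptor gene Tl, chosen likewise, measured 9.67 and 9.60 in them, against 8.12 to 8.76 (limma adjusted p = 0.400). The components nec (8.86 and 9.07) and dl (8.33 and 9.07), chosen likewise, were also highest in these animals. In the remaining measured components these animals did not both stand above all others. For example, cact measured 10.43 and 10.77, against 10.53 to 10.91, and pll 8.07 and 7.82, against 7.46 to 8.07. Whether Toll signalling differed in these animals was not tested. Among 11 of 13 measured Imd pathway components Fadd (1.21 ± 0.20, limma adjusted p = 0.0267) and Tab2 (0.86 ± 0.14, adjusted p = 0.0240), adaptors of that pathway, rose, with a list median of 0.19. Of 7 measured JAK/STAT components of 10 listed none was called (median 0.02), and the lowest p was that of the transcription factor gene Stat92E (0.27 ± 0.14, limma adjusted p = 0.497), followed by the receptor genes dome (0.16 ± 0.17) and et (0.27 ± 0.31). Of 10 measured stress and JAK/STAT response genes of 17 listed the JNK phosphatase gene puc rose by 0.66 ± 0.13 (limma adjusted p = 0.0470) and the lipocalin gene NLaz fell by 1.02 ± 0.20 (adjusted p = 0.0468). Outside the Toll list, PGRP-LB of the Imd list measured 6.59 in mutant female 2 and 6.44 in mutant male 1, against 5.01 to 5.97. In the response list vir-1 measured 9.08 and 9.40 in them, against 7.96 to 8.94. By less, PGRP-LE and dome were highest in both animals too, all 4 named after their values were seen. In the remaining genes of these lists both animals did not stand above all others.

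Cell type markers were counted against the same 2.79% of all probe sets called for genotype. Fat body markers, of which 8 of 11 were measured, had 0 calls, and their summed level (log2) lay between 15.74 and 16.04 on all arrays, with mutant male 1 the lowest. Lsp2, Fbp1 and Fbp2 carry most of that sum and stood at 13.61 to 14.34, near the brightest probe sets, where differences can be compressed. Lsd-1, a lipid droplet protein gene below that range, was lowest in mutant male 2 (9.65) and lay between 11.11 and 12.63 on the other arrays. The lowest p in that list were those of Lsd-1 (-1.18 ± 0.37, limma adjusted p = 0.205), the lipase gene bmm (-0.32, adjusted p = 0.395) and Sdr (-0.42, adjusted p = 0.554). Hemocyte markers were all measured (14), with 1 call, the phagocytosis receptor gene eater (1.83 ± 0.13, limma adjusted p = 0.000894), and a list median of 0.50. Their summed level was 10.85 to 11.78 in wild type, 12.54 and 12.43 in mutant females and 12.54 and 11.84 in mutant males. The brightest genes weigh most in that sum, such as PPO2 (10.84) in mutant female 1 and He (11.19) in mutant male 1. It therefore does not describe the 14 genes alike. Within that list PPO3, a prophenoloxidase gene of lamellocytes, named after its values were seen, stood at 6.18 in mutant female 2 and 8.78 in mutant male 1 against 3.87 to 4.41 in the others. He (9.93 and 11.19, against 6.98 to 9.03) was highest in these animals too, as by less were ush, Sr-CI and lz, all named likewise. PPO1 and PPO2, named likewise, were highest in mutant female 1 (10.23 and 10.84) and among mutants lowest in mutant male 1 (8.40 and 9.32). Wild type females also differed in them, with 9.39 and 6.81 for PPO1 and 10.10 and 7.96 for PPO2. Wild type males differed in NimC1 (7.45 and 4.44), named likewise. Pxn, also named likewise, was lowest of all in mutant male 1 (5.43). Hml, a marker of most larval hemocytes, likewise named after its values were seen, was dim everywhere (4.16 to 5.49) and lowest in mutant male 1. Whether blood cell numbers have a part in the Bomanin and Turandot values was not tested. Midgut markers held 3 calls of 8 measured (10 listed), rises of mag, betaTry and Jon25Biii by 2.72 to 2.91, and among the mutants all 3 were lowest in mutant male 1. The other 5 did not pass, with differences of 1.15 (LManI), 0.62 (PGRP-SC2), -0.02 (Mal-A1), -0.10 (Jon65Ai) and -0.50 (alphaTry).

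The arrays themselves were checked. Array medians were 4.80 to 5.13 (log2), the 2 arrays of a group had r = 0.977 to 0.990 over all probe sets, and no arrays were identical. On the first principal component, which parted the sexes, mutant male 2 stood at 26.7 and the other males at 53.4 to 59.6, with females at -53.1 to -48.3. Leaving out mutant male 2 puts mutant male 1 alone in its group, and the genotype differences were then 5.05 for TotB and 4.29 for TotC. The part of mutant male 2 in those differences was not tested beyond leaving it out. Bap170 was lower in all 4 mutants (5.69 to 6.09) than in wild type (6.88 to 7.35), and polybromo likewise (3.96 to 4.27 against 5.09 to 6.30). Summed testis markers lay at 8.24 to 8.75 in females and 11.23 to 12.23 in males, so the sex labels matched. The 3' minus 5' difference of actin, a sign of RNA quality, was 0.45 in mutant female 2 and 0.58 in mutant male 1, within the 0.43 to 0.79 of wild type, and lowest in mutant male 2 (0.23). Spike controls were dimmer in mutant males 1 and 2 (medians 8.68 and 8.85) than on the other arrays (9.09 to 9.20), so that both the high and the low male share this.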

How the data were processed

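Per the labels' protocols, each Affymetrix array took RNA from 1 prepupa in a single colour. The deposited values are intensities on a linear scale, made by the authors with RMA (background correction, normalization between arrays and summary of each probe set), per the submitters' processing notes. Its software and settings: not given in the sources used here. The file's 18952 probe sets were put on the log2 scale and 183 controls dropped. Symbols came from the platform annotation and gene order from the RefSeq table of Release 6, whose coordinates are not printed because no build is named for the arrays. Group means of the 8 arrays were fitted with limma 3.58.1 (R 4.3.3, lmFit and eBayes, 4 residual and 3.03 prior degrees of freedom), with Benjamini-Hochberg adjustment over 18769 probe sets. The script was checked on data with known answers. SE comes from this fit, and SD is over arrays. The number of arrays limits the precision, and each animal is 1 replicate.

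The genes, lists and likeness rule were chosen with earlier results of these data known. The naming rule took all genes of the families, every called gene of a list or else the 3 with the lowest p, every measured gene of the lists of other Turandots, Toll targets and mutated subunits, and the 5 profiles nearest to BomS2, BomT2 and TotB. Further genes are marked as named after their values were seen. Among the 17 family genes that RefSeq lists, 10 had a probe set of their own, and the others are not analysed here. Alternatives covered scaling, a filter on dim probe sets, a variance trend, array weights, the replicate number as a block, 1 probe set per gene and the omission of each array. The numbers in the titles are not said to mark a shared litter, batch or day.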

Additional observations from a re-analysis of the deposited data

Results flagged for a closer look

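Within each genotype and each sex (4 arrays), the distance of the most extreme animal from its nearest neighbour was set against the group's range. In 13 of 40 such checks the ratio exceeded Dixon's 95% critical value. Each animal enters a genotype and a sex group, and some genes share a profile, so the checks are not independent. Groups by sex also mix both genotypes. The checks were not run over all probe sets, so no share can stand beside this count. The genes were put forward for such animals, so this count is a description. Among the 4 mutants, BomBc2 was set apart by mutant female 2 (ratio 0.928) and TotC by mutant male 1 (0.899). Among the 4 females, mutant female 2 stood apart in BomBc2 (0.976), BomS5 (0.967), BomS2 (0.946), BomT2 (0.919) and BomS6 (0.904). Among the 4 males, mutant male 1 stood apart in BomS2 (0.967), BomT2 (0.967), TotC (0.966), BomS5 (0.965), BomS6 (0.901) and TotB (0.901). In each of these checks the animal that stood apart was the highest, and none of the 13 was found among the 4 wild type animals.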

How the results depend on the processing

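With 10 genes, 5 contrasts and 17 alternatives, 76 of 85 counts of called genes stayed at 0. The exceptions were 3 calls for sex after centring each array on its median, and fits without mutant female replicate 1 or mutant male replicate 2. Each of these omissions leaves the high animal alone in its group, and no call is drawn from it. In the genotype effect, 153 of 163 values kept direction and side of the threshold. With 1 array left out the near-zero difference of BomBc3 ran from -0.04 to 0.09 that of TotB from 0.17 to 5.05 and that of TotC from 0.00 to 4.29, and without both high animals BomBc3 was 0.11, TotB -0.79 and TotC -0.20. No other probe set of a gene could be tried, since each had 1. The median residual SD of the 10 genes was within its spread under both other scalings. The filter on dim probe sets removed 7 of the 10 genes, leaving BomS2, BomT2 and TotB.

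Over all probe sets, the 524 calls for genotype fell to 247 to 290 without 1 female array and to 255 without both high animals. The 177 in females became 44 to 173 and the 197 in males 105 to 272 without 1 array, and without both high animals 66 and 130. The 0 calls for interaction became up to 20 (without mutant male replicate 2) and 5 with a variance trend. The 1894 for sex became 3476 after quantile normalization (45.6% higher in males, against 80.1%), 12522 after median centring (11.5%) and 1133 after the filter. With the replicate number as a block, 0 of the 10 genes were called in any contrast and 447 probe sets for genotype. Replicate differences of the groups correlated at r = -0.304 to 0.413, at -0.178 between wild type and mutant males, so numbers crossed in mutant males were tried after seeing the data: 0 of the 10 genes, and 802, 288 and 312 probe sets for genotype, genotype in females and genotype in males. The cause of these shifts was not tested. Dim signal limits BomS4, BomT3 and BomBc3, and wild type values of all 10 genes.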

Other observations

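Of 2 further genes, picked after their values were seen, 1 was high in both of these animals and 1 in mutant male 1 alone. ItgaPS4, an integrin gene known as a lamellocyte marker, measured 8.18 in mutant female 2 and 9.07 in mutant male 1, against 3.78 to 5.05 in the others. CG42792 measured 13.63 in mutant male 1 and 3.69 to 4.76 in the other 7 animals. Like the Bomanins and Turandots, neither passed for genotype (limma adjusted p = 0.328 and 0.793).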
